A study of Arabidopsis thaliana with 24 samples.

Results

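The data described here are the response of the Arabidopsis mutant pif7 to 1 hr of shade. They comprise 6 of the 24 RNA sequencing libraries of the study: 3 libraries of pif7 seedlings kept in white light and 3 of pif7 seedlings shaded for 1 hr, with the full table of 33020 loci. The seedlings were 6 days old, whole seedlings were extracted, and the shade had a red to far-red ratio (R/FR) of 0.4. The 6 libraries of wild type (WT, Col-0) in the same lights, 3 in white light and 3 in shade, serve as the comparison. The labels name the mutant only as pif7, with no allele. The other 12 libraries, from the mutants asf1ab and hira in both lights, entered only the filter on low values, the estimate of the spread and the rescaling. Nothing in the labels tells whether replicate libraries were grown as separate cultures, and p-values below therefore measure only the spread between these samples, which may be technical. Because whole seedlings were used, fewer cells of a type and less RNA per cell cannot be told apart.

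PIF7 is a basic helix-loop-helix (bHLH) transcription factor of the PHYTOCHROME INTERACTING FACTOR family. In white light the red and far-red photoreceptor phytochrome B restrains it. When far-red light rises, as under a canopy, PIF7 is dephosphorylated and drives genes of auxin synthesis, above all the YUCCA flavin monooxygenases, which feed hypocotyl and petiole growth. PIF4 and PIF5 take part in the same response. PIF proteins bind the G-box, CACGTG, and the PBE-box, CATGTG on either strand (CACATG on the other).

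The sequence just before the start was read for genes of contrasting behaviour. YUC8, YUC9, HAT2 and IAA29 were induced by shade in WT and gave a smaller response in pif7, ASN1 was among the largest rises in pif7, DFR was among its largest falls, and ATHB2 was the core shade gene with the largest rise in pif7. Each line gives the 250 bases upstream of the start of the RefSeq gene model on the TAIR10.1 build, 5′ to 3′ on the coding strand, with a G-box or PBE-box in capitals.
YUC8 (chr4:14192319-14192568, plus strand, PBE-box from position -53): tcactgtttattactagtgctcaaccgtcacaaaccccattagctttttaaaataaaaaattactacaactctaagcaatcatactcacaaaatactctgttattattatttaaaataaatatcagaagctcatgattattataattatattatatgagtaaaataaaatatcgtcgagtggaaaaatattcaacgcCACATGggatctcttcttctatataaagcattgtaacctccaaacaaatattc
YUC9 (chr1:1104243-1104492, plus strand, PBE-box from position -65): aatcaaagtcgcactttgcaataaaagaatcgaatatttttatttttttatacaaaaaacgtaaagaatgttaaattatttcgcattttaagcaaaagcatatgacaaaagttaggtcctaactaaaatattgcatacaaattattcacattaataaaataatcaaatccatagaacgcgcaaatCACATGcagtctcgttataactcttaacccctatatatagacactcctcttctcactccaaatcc
HAT2 (chr5:19218008-19218257, minus strand, PBE-box from position -118): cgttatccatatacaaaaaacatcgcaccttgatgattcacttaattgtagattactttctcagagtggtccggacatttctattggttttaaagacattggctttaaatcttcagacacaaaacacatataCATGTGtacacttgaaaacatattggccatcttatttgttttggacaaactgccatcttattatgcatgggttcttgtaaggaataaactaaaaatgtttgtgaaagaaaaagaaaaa
IAA29 (chr4:15583082-15583331, plus strand, neither motif in the window): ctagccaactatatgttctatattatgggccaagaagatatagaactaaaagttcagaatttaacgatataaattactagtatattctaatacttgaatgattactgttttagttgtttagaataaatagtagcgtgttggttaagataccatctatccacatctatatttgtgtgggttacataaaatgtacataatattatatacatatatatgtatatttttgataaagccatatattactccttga
ASN1 (chr3:17441432-17441681, minus strand, G-box from position -167): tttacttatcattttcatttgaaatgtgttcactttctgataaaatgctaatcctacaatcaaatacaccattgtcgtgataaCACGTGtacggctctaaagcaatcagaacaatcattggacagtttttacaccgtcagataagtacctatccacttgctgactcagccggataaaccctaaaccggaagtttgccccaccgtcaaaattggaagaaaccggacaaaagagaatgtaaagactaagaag
DFR (chr5:17166033-17166282, minus strand, G-box from position -14): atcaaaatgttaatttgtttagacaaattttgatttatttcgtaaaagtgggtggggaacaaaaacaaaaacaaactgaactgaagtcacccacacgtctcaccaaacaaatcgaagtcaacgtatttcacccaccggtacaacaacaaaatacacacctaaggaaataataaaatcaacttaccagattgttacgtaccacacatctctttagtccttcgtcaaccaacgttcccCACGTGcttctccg
ATHB2 (chr4:9448864-9449113, plus strand, neither motif in the window): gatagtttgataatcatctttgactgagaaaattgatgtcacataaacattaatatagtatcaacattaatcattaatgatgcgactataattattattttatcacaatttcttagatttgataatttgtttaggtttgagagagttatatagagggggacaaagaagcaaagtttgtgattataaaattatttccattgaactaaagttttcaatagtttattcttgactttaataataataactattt

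Over windows of 300 bases, from 250 before to 50 after the start, CACGTG was present in 7.68% of the promoters of 27443 nuclear protein-coding genes and in 9.23% of those of the 18044 such genes tested. It was present in 17.7% of the 537 promoters of genes higher by at least 1 log2 unit in shaded pif7 and in 12.1% of the 478 promoters of genes lower by as much. CATGTG or CACATG was present in 12.9% of all promoters, in 12.7% of those tested, in 14.9% of the higher and in 18.6% of the lower genes. Of all genes tested, 2.88% rose by at least 1 log2 unit in WT, and among 218 promoters of those that responded less in pif7, 29.4% held CATGTG or CACATG and 11.9% held CACGTG. Both strands were searched, and a promoter with several matches was counted once. IAA29, FLP1, CKX5, ATHB4 and HAT3, which also responded less in pif7 than in WT, held neither motif in this window. These shares describe letters in a window around the start.

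PIF7 itself checks the labels. It stood at 28.78, 28.70 and 24.77 FPKM (fragments per kilobase of transcript, scaled to the library's mapped fragments) in white-light WT and at 0.90, 0.72 and 1.70 in white-light pif7. In shade it stood at 14.42, 11.15 and 11.70 in WT and at 0.88, 0.60 and 0.48 in pif7. Every pif7 library therefore lay below every WT library in PIF7 RNA.

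The summed FPKM of all 24 libraries ranged from 778266 to 893997, and the depth, estimated weakly from the steps between low values, from 13400000 to 17700000 reads. White-light pif7 replicate 3 stands apart from its group. Its correlation with replicates 1 and 2 over the genes was 0.962, against 0.980 between those libraries, and it correlated more with a white-light WT library (0.967). The 50 genes most abundant in white-light WT took 24.88 and 24.71% of the summed FPKM in white-light pif7 replicates 1 and 2, 19.35% in replicate 3, and 17.16, 18.15 and 18.22% in shaded pif7. In WT they took 23.41, 22.75 and 20.39% in white light and 21.3 to 23.6% in shade. White-light WT replicate 3 also stood apart, correlating at 0.961 and 0.972 with its fellow libraries, against 0.976 between those. Its summed FPKM of rapid stress and touch genes was 725.55, against 299.95 and 336.39 in replicates 1 and 2. That library enters every difference from WT. The median of all genes tested moved by 0.12 on the log2(FPKM + 1) scale in pif7 and by 0.01 in WT, and the part of the abundant genes in this was not tested. Changes are given for the FPKM as deposited and, where it matters, after each library was rescaled by the median of its ratios to the mean library, which set the median at -0.01.

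**Figure D1:**
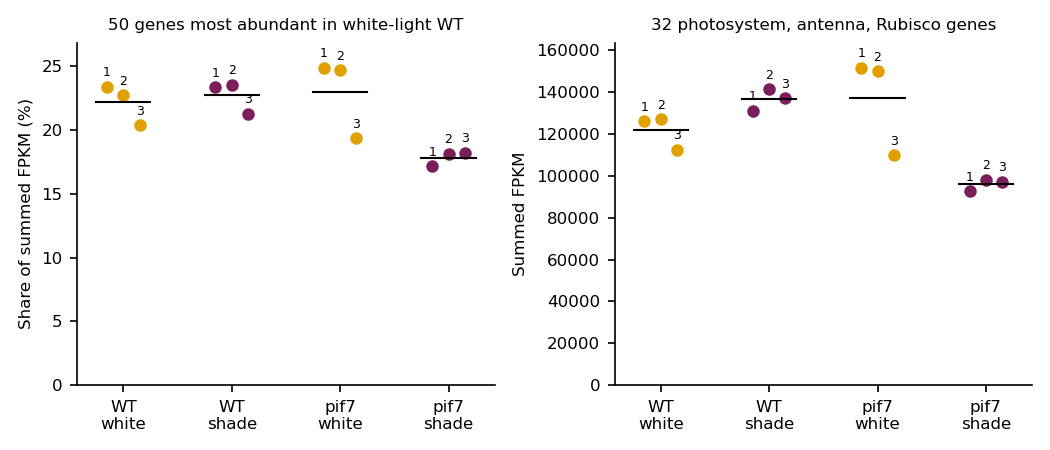
Share of summed FPKM (in percent) taken by the 50 genes most abundant in white-light WT (left) and FPKM summed over 32 nuclear photosystem, antenna and Rubisco genes (right), for each of the 3 libraries of WT and pif7 in both lights. Points are libraries with their replicate number and bars are means; white-light pif7 replicate 3 lies between its 2 fellow libraries and the 3 shaded pif7 libraries in both panels.

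At an adjusted p below 0.05 (limma, Benjamini-Hochberg over 19126 genes with a mean of at least 1 FPKM), 5715 genes (29.9%) were higher and 2597 (13.6%) lower in shaded than in white-light pif7. The split depended on the scaling: after rescaling, 3291 (17.2%) were higher and 3812 (19.9%) lower. Of all genes tested, 566 (2.96%) were called higher and 507 (2.65%) lower by at least 1 log2 unit, and 403 (2.11%) and 684 (3.58%) after rescaling. In WT, 2854 (14.9%) were higher and 2189 (11.4%) lower. The size of the response, pif7 minus WT, differed for 598 genes in the upward direction (3.13%) and for 569 in the downward direction (2.98%). After rescaling these were 287 (1.5%) and 776 (4.06%). By at least 1 log2 unit, 92 genes (0.481%) lay higher and 307 (1.61%) lower in this difference, and 51 (0.267%) and 380 (1.99%) after rescaling. Of all genes tested, 34.3% had every shaded pif7 library above every white-light one, and 18% the reverse. Without white-light pif7 replicate 3 the pif7 response gave 6133 higher and 2366 lower genes and the difference 1841 and 792. Without shaded pif7 replicate 1 the difference gave 152 and 349. All values below are log2(FPKM + 1) differences with their standard error, which understate the change of genes of low FPKM.

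The shade regulators held members that rose strongly in pif7 and members that did not pass the threshold there. Of 20 core shade-induced genes, all called higher in WT, 14 were higher and 1 lower in pif7 (11 and 1 after rescaling), beside 29.9 and 13.6% of all genes tested. The median change of the list was 0.88 in pif7 and 3.13 in WT, against 0.12 and 0.01 for all genes. The response of 15 of the 20 was smaller in pif7 than in WT (17 after rescaling), and that of none was larger. Over all genes tested, the difference from WT was called lower for 2.98% and higher for 3.13% (4.06 and 1.5% after rescaling).

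Those with a strong rise include transcription factors, their bHLH partners and a cell wall enzyme. ATHB2, a homeodomain-leucine zipper (HD-Zip) factor that is a classical marker of low R/FR, stood at 3.43, 4.02 and 6.78 FPKM in white light and at 103.05, 104.45 and 116.03 in shade. The groups did not overlap and the change was 4.29 ± 0.15 (adjusted p = 1.31e-13), against 4.90 in WT. HFR1, an atypical bHLH protein that dimerises with PIFs and limits the shade response, went from 4.67, 4.29 and 4.93 FPKM to 105.45, 84.30 and 94.63, a change of 4.08 ± 0.13 (adjusted p = 6.23e-14). PIL1, a PIF-like bHLH gene with an early shade response, went from 0.33, 0.23 and 0.19 FPKM to 15.21, 15.23 and 15.83. All 3 shaded libraries of each gene lay above all white-light libraries, as for 34.3% of all genes tested. The rule that picked the largest rises, these genes among them, required this. The difference from the WT response was -0.61 for ATHB2 (adjusted p = 0.0781) and 0.48 for HFR1 (adjusted p = 0.114), both short of the threshold, although that of ATHB2 passed it after rescaling (-0.73, adjusted p = 0.0281). It was -0.54 for PIL1 (adjusted p = 0.043), a call lost in 11 of 12 fits with 1 library left out (adjusted p up to 0.107). PAR1, another bHLH inhibitor of elongation, rose by 2.35 ± 0.12, less than in WT by 0.79 (adjusted p = 0.0111), while its relative PAR2 changed by 0.06 ± 0.15 with a sign that turned on rescaling. XTH15, an enzyme that remodels cell wall xyloglucan, went from 2.30, 1.92 and 2.46 FPKM to 38.33, 47.83 and 40.58, a change of 3.74 ± 0.22 against 3.99 in WT (adjusted p of the difference 0.646). FHL, a helper of phytochrome A import into the nucleus, rose by 1.23 ± 0.23.

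Within the HD-Zip class II family the members went apart. HAT1 rose by 1.38 ± 0.11 and ATHB4 by 0.73 ± 0.12, both less than in WT (difference -0.58, adjusted p = 0.0333, and -1.45, adjusted p = 1.84e-05). The call of the difference of HAT1 was lost in 9 of 12 fits with 1 library left out (adjusted p up to 0.0959). HAT2 stood at 16.29, 13.37 and 17.37 FPKM in white light and at 18.64, 19.35 and 15.03 in shade, so that its groups overlapped. Its change of 0.16 ± 0.11 missed the threshold, against a rise of 2.96 in WT, and the difference was -2.79 (adjusted p = 7.23e-10). HAT3 changed by 0.02 ± 0.10 against 1.18 in WT, with a difference of -1.16 (adjusted p = 1.62e-05).

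**Figure D2:**
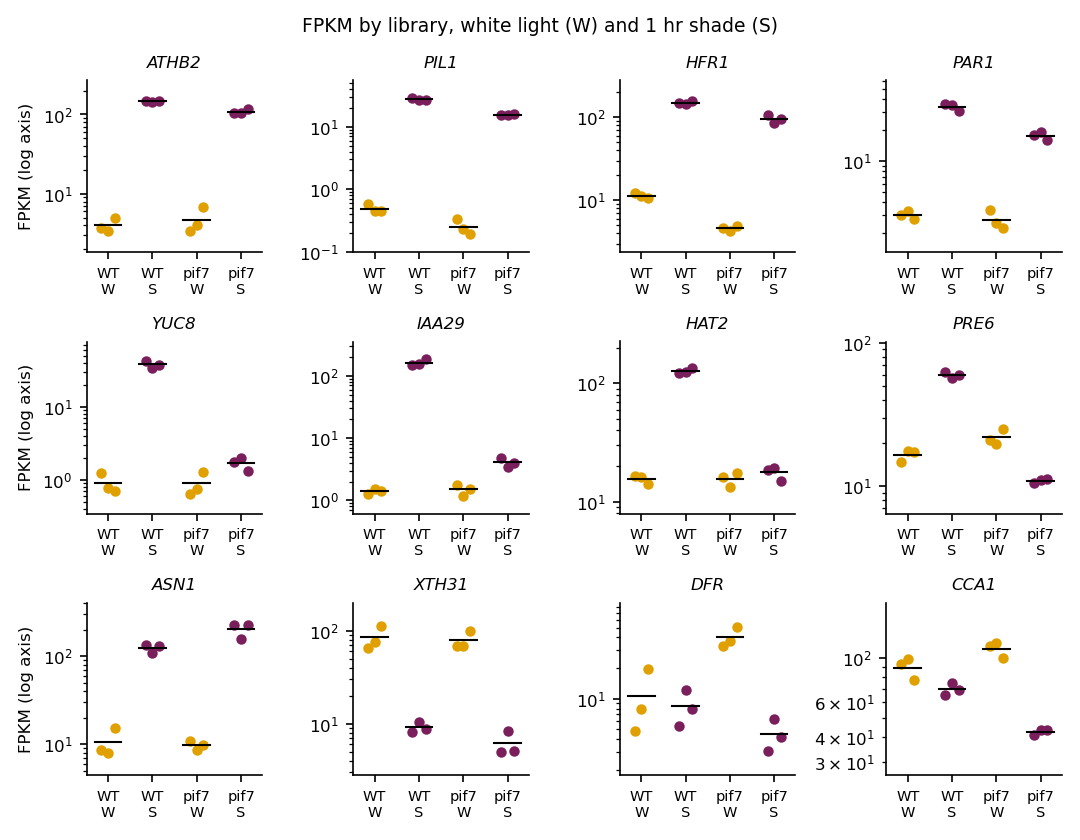
FPKM on a log axis in each library of WT and pif7 in white light (W) and after 1 hr of shade (S) for 12 genes; points are libraries and bars are means of 3. ATHB2, PIL1, HFR1 and PAR1 rose in both genotypes; YUC8, IAA29 and HAT2 in shaded pif7 lay far below shaded WT; PRE6 fell in pif7 and rose in WT.

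Auxin synthesis genes induced in WT gave much smaller responses in pif7. YUC8, a flavin monooxygenase of the last step of auxin synthesis, went from 0.64, 0.75 and 1.3 FPKM to 1.75, 2.0 and 1.32 in pif7, while shaded WT held 42.59, 34.39 and 37.70. The change in pif7 was 0.51 ± 0.17 (adjusted p = 0.0226, but 0.0628 after rescaling and up to 0.102 with 1 library left out), against 4.37 in WT. YUC9 stood at 0.24, 0.24 and 0.33 FPKM in white light and at 0.13, 0.24 and 0.10 in shaded pif7, against 15.61, 15.13 and 17.48 in shaded WT. The differences from WT were -3.85 (adjusted p = 2.9e-09) and -3.88 (adjusted p = 1.29e-10). Among 16 genes of auxin synthesis and transport, 5 were higher and 1 lower in pif7 (4 and 3 after rescaling), near the shares of all genes tested (29.9 and 13.6%), and 11 and 3 in WT (14.9 and 11.4% of all genes). Those that rose in pif7 include carriers: the efflux carrier PIN3 by 0.73 ± 0.11, less than in WT by 1.03 (adjusted p = 0.000197), and the influx carrier AUX1 by 0.83 ± 0.13, with no called difference from WT. LAX1, a relative of AUX1, rose by 0.72 ± 0.19 and the transporter ABCB19 by 0.57 ± 0.10.

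Genes that respond to auxin showed the same contrast in size. Of 26 Aux/IAA repressor genes and GH3 auxin-conjugating enzymes, 11 were higher and 4 lower in pif7 (7 and 5 after rescaling). Shares over all genes tested were 29.9 and 13.6% (17.2 and 19.9% after rescaling). In WT 22 of the 26 were higher and 1 lower (14.9 and 11.4% of all genes). In pif7 19 responded less than in WT, beside 2.98% of all genes tested called lower in this difference. IAA29 went from 1.79, 1.19 and 1.52 FPKM to 4.81, 3.43 and 4.05 in pif7, a rise of 1.03 ± 0.21, while shaded WT held 147.36, 154.09 and 183.71. Its difference of -5.04 (adjusted p = 1.23e-09) was the most negative among called genes with a mean of at least 2 FPKM. IAA19 rose by 0.70 ± 0.27 (adjusted p = 0.0454) against 4.68 in WT. Its call in pif7 was lost on rescaling and in 5 of 6 fits with 1 library left out. Without white-light replicate 3 its change was 0.41 (adjusted p = 0.24). GH3.3 stood at 1.89, 2.53 and 2.90 FPKM in white light and at 4.54, 3.47 and 4.32 in shaded pif7 against 130.48, 70.48 and 130.33 in shaded WT. Its change of 0.58 ± 0.31 missed the threshold, and the difference was -4.33 (adjusted p = 2.22e-06). IAA2 rose by 0.97 ± 0.08 and GH3.5 by 1.18 ± 0.17, both less than in WT (differences -2.04 and -1.88). Of 27 SAUR genes, which encode small auxin-induced growth proteins, 7 were higher and 4 lower in pif7 (5 and 5 after rescaling), beside 24 higher in WT, and 23 responded less. The pif7 counts are near the shares of all genes tested, 29.9 and 13.6% (17.2 and 19.9% after rescaling). In WT 14.9% of all genes were higher, and 2.98% were called lower in the difference. SAUR22 rose by 1.54 ± 0.13, SAUR23 by 1.27 ± 0.15 and SAUR1 by 1.24 ± 0.18, against 4.42, 3.71 and 3.87 in WT. SAUR19 to SAUR24 are close copies, and reads could be split between them.

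**Figure D3:**
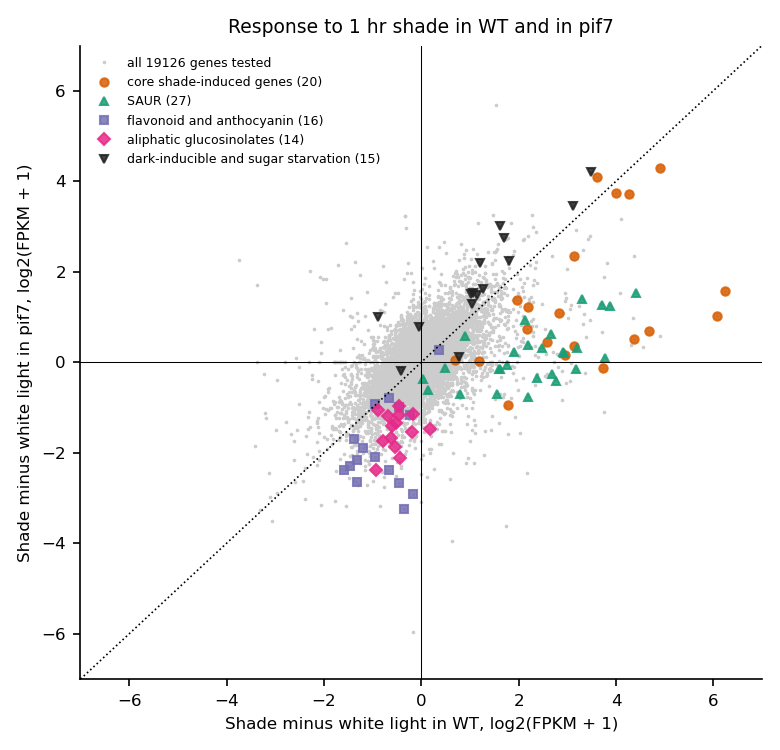
Change with shade in WT (horizontal) and in pif7 (vertical), both as log2(FPKM + 1) differences, for the 19126 genes tested (grey), with 5 gene lists in colour; the dotted line marks equal change. SAUR and many core shade genes lie to the right near 0 on the vertical axis, dark-inducible genes lie mostly above the line, and the flavonoid and glucosinolate genes lie mostly below it.

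Other hormone pathways moved differently. Among all genes tested, 29.9% were higher and 13.6% lower in pif7 (17.2 and 19.9% after rescaling), and 14.9 and 11.4% in WT. Of 17 brassinosteroid genes, 15 were higher and 1 lower in pif7 (10 and 1 after rescaling), and 12 and 1 in WT. CPD, a cytochrome P450 of brassinosteroid synthesis, stood at 77.97, 70.95 and 61.66 FPKM in white light and at 206.45, 191.19 and 198.32 in shade, a rise of 1.49 in pif7 and 1.25 in WT (adjusted p of the difference 0.31). The receptor gene BRI1 rose by 0.93, less than in WT by 0.71 (adjusted p = 0.00917). BEE1, a bHLH gene induced by brassinosteroid, rose by 1.09 ± 0.10 against 2.82 in WT (difference -1.73, adjusted p = 1.84e-07). In the ethylene list, 10 of 16 were higher and 2 lower, and the transcription factor EIN3 rose by 1.03. The synthase genes ACS8 and ACS11 rose by 1.53 and 1.43, less than in WT by 2.55 and 1.54, and ACS6 fell by 1.5. Of 13 gibberellin genes, 6 were higher and 2 lower (2 and 2 after rescaling, near the shares of all genes tested). GAI, a DELLA repressor, rose by 1.01, and the receptor GID1A by 0.62. GA20OX1, a gibberellin synthesis enzyme, went from 1.33, 0.97 and 1.36 FPKM to 0.19, 0.27 and 0.64, a fall in pif7 (log2 change -0.71, adjusted p = 0.00358) against a rise of 1.70 in WT, and the difference was -2.41 (adjusted p = 3.3e-06). GA20OX2 rose by 0.46 (adjusted p = 0.0425) against 2.59 in WT. Its call in pif7 was lost on rescaling and in 4 of 6 fits with 1 library left out (adjusted p up to 0.141). Of 9 cytokinin response genes, 1 was higher and 5 lower. The response regulators ARR7, ARR8 and ARR9 fell by 1.25, 0.73 and 0.73, and the cytokinin oxidase CKX5 changed by 0.37 (adjusted p = 0.105) against 3.14 in WT.

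Among genes of small bHLH proteins that switch elongation on and off, PRE6 and PRE1 fell in pif7 and rose in WT. PRE6, which promotes elongation by binding inhibitory bHLH proteins, stood at 21.14, 19.59 and 25.12 FPKM in white light and at 10.56, 10.99 and 11.15 in shaded pif7. It was the only core gene called lower in pif7, with a change of -0.94 ± 0.12 (adjusted p = 6.19e-06), and it rose by 1.79 in WT (difference -2.73, adjusted p = 2.5e-09). PRE1, of the same family, changed by -0.81 in pif7 (adjusted p = 0.000928) and by 1.52 in WT (difference -2.34, adjusted p = 3.09e-06). IBH1, an inhibitor that PRE proteins bind, rose by 1.75 in pif7 and 1.68 in WT (adjusted p of the difference 0.856). Of 20 cell wall loosening genes, 8 were higher and 8 lower in pif7, beside 29.9 and 13.6% of all genes tested. The xyloglucan enzymes TCH4 and XTH18 rose by 2.73 and 2.39. XTH31, of the same family, fell from 68.21, 68.36 and 99.89 FPKM to 4.90, 8.34 and 5.09 (-3.5 ± 0.23, adjusted p = 2.31e-09), as it did in WT (-3.06). FLP1, a small protein gene of the core list, stood at 1.21, 0.93 and 0 FPKM in white light and at 3.5, 3.55 and 4.46 in shaded pif7, against 117.23 to 133.86 in shaded WT. Its difference was -4.67 (adjusted p = 2.94e-07).

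Light receptors and their partners responded in pif7 as follows. PHYA, the far-red receptor, stood at 19.90, 18.17 and 19.24 FPKM in white light and at 45.54, 40.79 and 44.88 in shade, a rise of 1.15 ± 0.11. PHYB, the main sensor of R/FR, rose by 1.14 ± 0.10. The bZIP factors HY5 and HYH, which promote light responses, fell by 0.95 and 1.1. No difference from WT was called for PHYB, HY5 or HYH. That of PHYA was -0.50 (adjusted p = 0.0569), and after rescaling -0.62 (adjusted p = 0.0376). Of 22 genes of photoreceptors and light signalling 10 were higher and 7 lower (6 and 7 after rescaling). Among all genes tested, 29.9% were higher and 13.6% lower (17.2 and 19.9% after rescaling). Of 7 PIF genes, PIF8 fell by 0.66 and no other was called, although PIF7 itself passed after rescaling (-0.39, adjusted p = 0.0355). PIF4 changed by -0.26 and PIF5 by -0.16 in pif7, short of the threshold, against rises of 0.63 and 0.52 in WT. Their differences were -0.89 (adjusted p = 0.0241) and -0.68 (adjusted p = 0.0178). PIF6 changed by 0.17 against 1.99 in WT (difference -1.82, adjusted p = 0.00205). The call of the difference of PIF4 was lost in 5 of 12 fits with 1 library left out (adjusted p up to 0.0603). Of 7 group IV B-box genes, zinc finger factors around HY5, 2 were higher and 4 lower. BBX18 fell from 31.29, 33.22 and 38.89 FPKM to 7.35, 7.43 and 6.72, a change of -2.11 ± 0.14, further than in WT by 0.71 (adjusted p = 0.0428). BBX19 changed by -1.26, with a difference of -0.81 (adjusted p = 0.0295), BBX25 fell by 0.81 and BBX20 rose by 0.90. With 1 library left out, the call of the difference was lost in 12 of 12 fits for BBX18 (adjusted p up to 0.0913). For BBX19 it was lost in 8 of 12 (adjusted p up to 0.0828).

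Several clock genes of the morning fell in pif7. Of 21 clock genes, 5 were higher and 8 lower (3 and 11 after rescaling), beside 29.9 and 13.6% of all genes tested (17.2 and 19.9%). In WT 3 were higher and 4 lower, beside 14.9 and 11.4% of all genes. CCA1, a MYB repressor that peaks at dawn, stood at 113.85, 118.35 and 99.31 FPKM in white light and at 40.98, 43.30 and 43.32 in shade. Its change was -1.35 ± 0.15 (adjusted p = 9.64e-07), against -0.35 in WT, and the difference was -1.01 (adjusted p = 0.00727). The pseudo-response regulator PRR9 changed by -1.62 ± 0.24, and the LNK genes, coactivators of the morning MYB factors, by -1.35 (LNK1) and -1.25 (LNK3). Their differences from WT were -1.22 (adjusted p = 0.0407), -1.05 (adjusted p = 0.0154) and -1.33 (adjusted p = 0.00261). LHY, TOC1 and LUX were chosen after their values were seen, as the partner of CCA1 and as genes of the evening. LHY changed by -1.0 ± 0.11 against -0.03 in WT (difference -0.97, adjusted p = 0.000636). TOC1 rose from 20.70, 22.02 and 31.46 FPKM to 41.55, 39.54 and 43.21, a change of 0.74 ± 0.13 against -0.01 in WT (difference 0.76, adjusted p = 0.0211). LUX rose by 1.21 ± 0.14 against 0.77 in WT, with no called difference. With 1 library left out, the call of the difference was lost in 11 of 12 fits for PRR9 (adjusted p up to 0.0973). For TOC1 it was lost in 5 of 12 (adjusted p up to 0.0636). The time of day of sampling is not given in the labels.

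**Figure D4:**
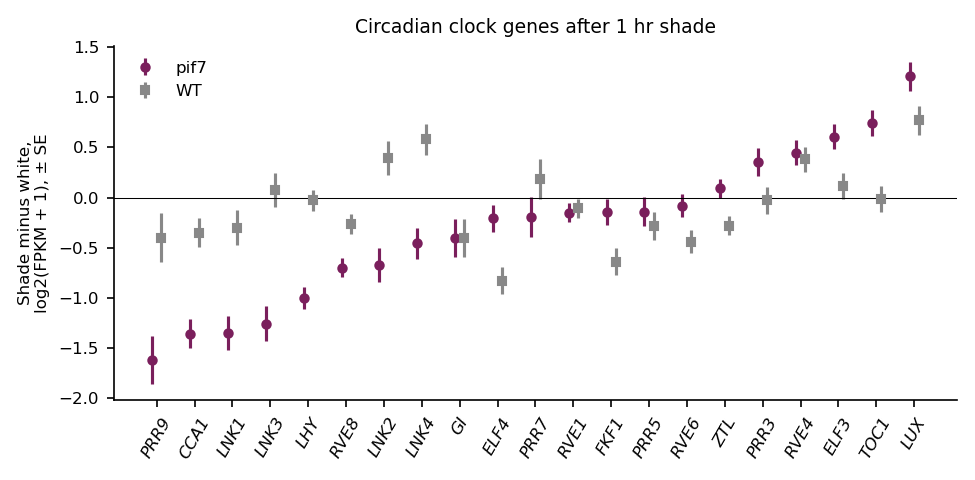
Change with 1 hr of shade, as log2(FPKM + 1) differences with their standard error, for 21 circadian clock genes in pif7 (circles) and WT (squares), ordered by the change in pif7. PRR9, CCA1, LNK1, LNK3 and LHY lie at -1.0 or below in pif7, and TOC1, ELF3 and LUX lie highest.

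Photosystem genes fell in pif7. Of 32 nuclear genes of the photosystems, their antennae and Rubisco, none was higher and 22 lower (27 after rescaling), and in WT 5 were higher and 1 lower. Their summed FPKM was 151605, 149983 and 109889 in white-light pif7 and 92651, 98136 and 97219 in shaded pif7, while in WT it was 112444 to 127013 in white light and 131221 to 141529 in shade. The count of lower genes rests on the white-light libraries: it was 10 without replicate 1, 11 without replicate 2 and 30 without replicate 3. LHCB1.1, an antenna protein of photosystem II, stood at 5604.33, 5953.45 and 3227.36 FPKM in white light and at 1522.42, 1727.75 and 1723.04 in shade. The change was -1.52 (adjusted p = 6.01e-05) against 0.48 in WT, and the difference was -2.0 (adjusted p = 0.00127). LHCB2.1, LHCB2.2 and LHCB3 fell by 1.12, 1.1 and 1.16, with differences from WT of -1.61, -1.75 and -1.75 (adjusted p = 0.00336, 0.00362 and 0.00549). Copies of LHCB1 and LHCB2 are near identical, so reads could be split among them. Of the 50 genes most abundant in white-light WT, whose share was lower in the same libraries, 27 belong to this list, and the part of this shift in other results was not tested. Of 16 chlorophyll synthesis genes, 9 were lower (11 after rescaling) and none higher. Among all genes tested, 13.6% were lower (19.9% after rescaling) and 29.9% higher. HEMA1, the first committed enzyme, fell by 0.79 ± 0.09, GUN5, a magnesium chelatase subunit, by 0.75 ± 0.11, and GUN4, its activator, by 0.63 ± 0.11. Of 75 plastid-encoded genes none passed the threshold in either direction, and 3 were lower after rescaling. Of 28 mitochondrion-encoded genes 4 were higher (also after rescaling), a smaller share than the 29.9% of all genes tested (17.2% after rescaling). They include ATMG01380, which was listed at 0 in all white-light libraries and at 36.84, 77.79 and 43.82 FPKM in shade. That gene was also listed at 0 in 3 of the 6 WT libraries, in both lights, and its call was lost in 3 of 6 fits with 1 library left out (adjusted p up to 0.0622).

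**Figure D5:**
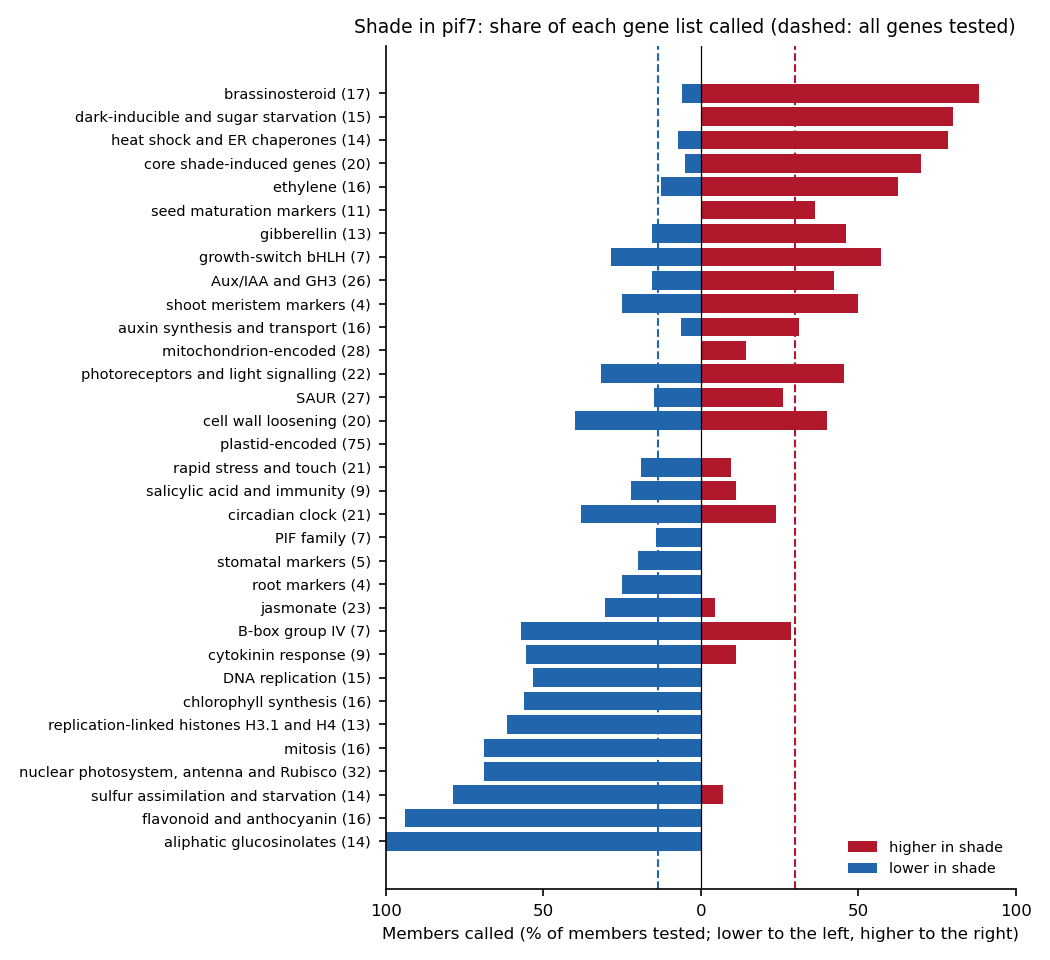
Share of the tested members of each gene list called higher (right, red) or lower (left, blue) in shaded than in white-light pif7, in percent, with the number tested in brackets; dashed lines mark all genes tested, 29.9% higher and 13.6% lower. Brassinosteroid, dark-inducible and chaperone lists lie at the top, and sulfur, flavonoid and glucosinolate lists at the bottom.

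The lists with the lowest medians were those of flavonoids, aliphatic glucosinolates and sulfur assimilation. Over all genes tested, 13.6% were lower in pif7 (19.9% after rescaling) and 11.4% in WT, with medians of 0.12 and 0.01. Of 16 flavonoid and anthocyanin genes, 15 were lower and none higher, with a median of -2.13 against -0.80 in WT, where 9 were lower, and the count was again 15 after rescaling and without white-light replicate 3. LDOX, an enzyme of anthocyanin synthesis, went from 30.85, 34.22 and 45.62 FPKM to 2.31, 3.87 and 2.82, a change of -3.24 ± 0.39 (adjusted p = 3.34e-06). DFR, the enzyme before it, went from 32.70, 36.81 and 50.59 FPKM to 3.06, 6.24 and 4.23, a change of -2.91 ± 0.44. The white-light levels of these genes differ between the genotypes: LDOX stood at 5.37, 7.99 and 20.34 FPKM and DFR at 4.86, 7.84 and 19.36 in white-light WT, below every white-light pif7 library. In shaded WT LDOX stood at 5.37 to 10.85 FPKM and DFR at 5.39 to 12.23. The differences in response were -2.88 (adjusted p = 0.00412) and -2.75 (adjusted p = 0.0147). GSTF12, a glutathione transferase that carries anthocyanin to the vacuole, fell by 3.18 (difference -2.33, adjusted p = 0.0148). The glycosyltransferase UGT75C1 fell by 2.66 (difference -2.20, adjusted p = 0.00616). PAP1, a MYB activator of these genes, went from 5.81, 5.69 and 11.20 FPKM to 0.32, 0.20 and 0.40 (difference -1.34, adjusted p = 0.0428). The call of that difference was lost in 11 of 12 fits with 1 library left out (adjusted p up to 0.104). The repressor MYBL2 was the member that did not pass, at 0.27 ± 0.22.

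All 14 aliphatic glucosinolate genes were lower in pif7, with a median of -1.44, beside 8 lower in WT with a median of -0.53. Shares of all genes tested called lower were 13.6% in pif7 (19.9% after rescaling) and 11.4% in WT. These genes make sulfur-rich defence compounds from methionine. MYB29, an activator of the pathway, went from 12.95, 14.80 and 23.69 FPKM to 1.97, 3.92 and 3.5, a change of -2.12 ± 0.22 against -0.43 in WT (difference -1.69, adjusted p = 0.00236). The core enzymes CYP79F1 and CYP83A1 fell by 2.38 and 1.87, further than in WT (differences -1.46, adjusted p = 0.0197, and -1.34, adjusted p = 0.00152). The difference of CYP79F1 lost its call in 3 of 12 fits with 1 library left out (adjusted p up to 0.0587). The transporter gene BAT5 fell by 1.74. IPMI1, an isomerase of methionine chain elongation outside the list, fell by 2.71 (difference -1.59, adjusted p = 0.0145, and 0.0508 without shaded pif7 replicate 1). Of 14 genes of sulfur assimilation and starvation, 11 were lower and 1 higher, and 11 were lower in WT. APR1, which reduces activated sulfate, went from 65.72, 63.62 and 87.00 FPKM to 5.88, 7.67 and 7.86, a change of -3.16 ± 0.16, further than in WT by 1.1 (adjusted p = 0.00792). APR3 and LSU2, a marker of low sulfur, fell by 2.89 and 3.02, and GGCT2;1, which recycles glutathione, fell by 2.04.

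Cell division genes were lower in shaded pif7. Of 16 mitotic genes, 11 were lower (13 after rescaling, and 7 without white-light replicate 2), of 15 DNA replication genes 8 (13 after rescaling), and of 13 genes of the replication-linked histones H3.1 and H4 also 8 (11 after rescaling). No member of these lists was higher. In WT the lower counts were 0, 1 and 0. Over all genes tested, 13.6% were lower in pif7 (19.9% after rescaling) and 11.4% in WT. The medians of the mitotic, replication and histone lists were -0.57, -0.34 and -0.48 in pif7. In WT they were 0.11, -0.29 and 0.09, so the replication medians were close. The difference from WT was called lower for 4 mitotic and 2 histone genes, beside 2.98% of all genes tested (4.06% after rescaling). TPX2, a spindle protein, stood at 4.04, 4.27 and 4.74 FPKM in white light and at 2.02, 2.11 and 2.38 in shade, a change of -0.76 ± 0.18 against 0.17 in WT (difference -0.93, adjusted p = 0.036). KNOLLE, a syntaxin of the cell plate, changed by -0.73 ± 0.19 (difference -0.97, adjusted p = 0.0351). PCNA1, the sliding clamp of replication, fell by 0.85 ± 0.22, and the helicase subunits MCM2, MCM3 and MCM6 fell by 0.57, 0.54 and 0.54. With 1 library left out, the calls of the differences of TPX2 and KNOLLE were each lost in 10 of 12 fits (adjusted p up to 0.0896 and 0.0898). No replication gene had a called difference from WT. Histone genes of a class are near-identical copies, and their values are uncertain where reads could be split.

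Genes of energy shortage rose. Of 15 dark-inducible and sugar starvation genes, 12 were higher and none lower, with a median of 1.53, and after rescaling 11 and 1. Among all genes tested, 29.9% were higher and 13.6% lower (17.2 and 19.9% after rescaling). In WT 11 of the 15 were higher and 1 lower, with a median of 1.15, beside 14.9 and 11.4% of all genes. ASN1, asparagine synthetase of dark-kept tissue, stood at 11.03, 8.61 and 9.89 FPKM in white light and at 225.62, 154.41 and 223.98 in shade, a change of 4.21 ± 0.30 (adjusted p = 7.03e-09) against 3.48 in WT. SEN1 went from 45.35, 43.34 and 22.98 FPKM to 441.10, 314.61 and 455.47, a change of 3.44 ± 0.36. BCAT2, which breaks down branched-chain amino acids, rose by 3.02 ± 0.34, as did THA1, a threonine aldolase, by 3.07 ± 0.44. DIN10, of the raffinose synthase family, rose from 112.82, 108.86 and 77.36 FPKM to 703.14, 651.67 and 641.39. Its rise of 2.75 exceeded that of WT by 1.04 (adjusted p = 0.0388), a call lost on rescaling and in 11 of 12 fits with 1 library left out, and no difference from WT was called for ASN1, SEN1, BCAT2 or THA1.

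Of 14 heat shock and endoplasmic reticulum chaperone genes, 11 were higher and 1 lower (9 and 1 after rescaling), with a median of 0.90 beside 5 higher in WT. Among all genes tested, 29.9% were higher in pif7 (17.2% after rescaling) and 14.9% in WT. The response was called larger than in WT for 0 of the 14 and smaller for 1. HSP70 stood at 39.42, 28.79 and 76.96 FPKM in white light and at 279.12, 211.49 and 234.18 in shade, a change of 2.41 ± 0.56 (adjusted p = 0.00216). HSP90.1 rose by 1.96 ± 0.50 and BIP2, of the endoplasmic reticulum, by 1.13 ± 0.19. HSFA2, a heat shock factor, rose by 1.26 ± 0.49 (adjusted p = 0.0456), a call lost on rescaling and in 5 of the 6 fits with 1 library left out (adjusted p up to 0.145). White-light replicate 3 was the highest of its group in each of these 4 genes. No difference from WT was called for HSP70, HSP90.1, BIP2 or HSFA2.

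Defence and stress lists held few called rises. Of 23 jasmonate genes, 1 was higher and 7 lower (3 and 4 without white-light replicate 3), beside 29.9 and 13.6% of all genes tested. The list median was -0.21, and 0.05 without that replicate. PDF1.3, a defensin, was listed at 60.85, 26.41 and 8.97 FPKM in white light and at 0, 0.69 and 1.71 in shade, a change of -3.95 ± 0.61. In WT it lay between 0.34 and 5.61 FPKM in both lights, and the difference was -4.58 (adjusted p = 0.00363). VSP1, a vegetative storage protein, fell by 1.83 ± 0.37. Of 21 rapid stress and touch genes, 2 were higher and 4 lower (2 and 8 after rescaling), beside 29.9 and 13.6% of all genes tested (17.2 and 19.9% after rescaling), and in WT 7 were higher. ERF105, a rapid ethylene response factor, stood at 4.05, 5.92 and 4.53 FPKM in white light and at 0, 0.21 and 0 in shade, while WT held 0, 1.25 and 5.66 in white light and 12.61, 6.64 and 12.18 in shade. The difference was -4.61 (adjusted p = 0.000167). Of 9 salicylic acid and immunity genes, 1 was higher and 2 lower, beside the same 29.9 and 13.6%. NPR1 rose by 0.21 (adjusted p = 0.0387, but 0.522 after rescaling), and PAD4 and PR5 fell by 0.68 and 0.94. The call of NPR1 was lost in 4 of 6 fits with 1 library left out (adjusted p up to 0.217).

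Tissue markers were looked at in the same libraries. The summed FPKM of 7 root markers was 39.5 to 54.2 in white light and 38.9 to 40.4 in shade, that of 6 shoot meristem markers 51.7 to 64.7 and 61.2 to 65.9, and that of 6 stomatal markers 56.9 to 65.3 and 55.1 to 57.5. Of 12 seed maturation markers, 4 were at 0 in all white-light and 2 in all shaded pif7 libraries, and the sum was 2.8 to 13.9 in white light and 38.1 to 44.3 in shade. These sums did not overlap between the lights, as was so in the upward direction for 34.3% of single genes tested. Of 11 members tested 4 were higher (also 4 after rescaling), beside 29.9% of all genes tested (17.2% after rescaling). CRB, CRC and SESA1 to SESA4 stayed at or below 0.19 FPKM in every pif7 library. EM6, a late embryogenesis protein, went from 1.13, 2.44 and 5.67 FPKM to 19.91, 21.06 and 16.06, a rise of 2.44 ± 0.39. It also rose in WT, by 1.52 (adjusted p = 0.00588). OLEO2, an oil body protein, rose by 2.03 ± 0.43 and ABI3, a seed transcription factor, by 0.89 ± 0.19. CRA1, a storage globulin, stood at 0.31, 0 and 2.58 FPKM and at 6.31, 7.89 and 13.73, and its response was larger than in WT by 2.43 (adjusted p = 0.0489), a call lost on rescaling and in 11 of 12 fits with 1 library left out. M17, another late embryogenesis gene, was at 2.0, 1.7 and 17.43 FPKM in white light and at 36.32, 57.42 and 39.61 in shade. No difference from WT was called for EM6, OLEO2, ABI3 or M17. The part of seed material in other results was not tested.

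The remaining genes of the largest changes belong to no list. EXO, a growth-related protein induced by brassinosteroid, rose by 2.93 ± 0.18 from 22.86, 20.20 and 17.47 FPKM to 164.63, 146.59 and 168.10. AT5G44260, annotated as the tandem CCCH zinc finger gene TZF5, rose from 2.23, 3.28 and 2.01 FPKM to 31.76, 25.52 and 33.53, less than in WT by 0.95 (adjusted p = 0.0256). The call of that difference was lost in 5 of 12 fits with 1 library left out (adjusted p up to 0.0755). The long non-coding RNA AT5G03615 rose by 3.25 ± 0.38 and the protein-coding gene AT5G02580 by 2.99 ± 0.23. The microRNA locus MIR2936 was listed at 90.06, 112.22 and 0 FPKM in white light and at 189.06, 274.14 and 173.58 in shade, and without white-light replicate 3 its change was 1.04 and no longer called. Its call was lost in 3 of 6 fits with 1 library left out. Among the falls, AT1G73600 went from 185.20, 173.89 and 211.78 FPKM to 17.84, 25.99 and 22.51, a change of -3.06 ± 0.28, and the alpha carbonic anhydrase gene ACA2 fell by 2.75 ± 0.74. The small nucleolar RNA AT1G08643 was listed at 92.57, 43.61 and 56.78 FPKM in white light and at 0 in all shaded pif7 libraries, and was also at 0 in 2 WT libraries; its call was lost in all 6 fits with 1 library left out (adjusted p up to 0.076). The largest responses in excess of WT were those of the small nuclear RNA U4.10 by 3.79 (adjusted p = 0.0467), the long non-coding RNA AT1G07567 by 2.51 (adjusted p = 0.0295), AT3G20340 by 2.26 (adjusted p = 0.0332) and AT2G34317 by 2.06 (adjusted p = 0.00432). With 1 library left out, calls were lost in 9 (U4.10), 8 (AT1G07567) and 10 (AT3G20340) of 12 fits. The adjusted p reached 0.135 for U4.10 (0.0546 after rescaling), 0.0819 for AT1G07567 and 0.0843 for AT3G20340. U4.10 was at 0.75, 1.09 and 5.56 FPKM in white light and 28.24, 5.29 and 4.91 in shade, so that its groups overlapped, and 1 white-light WT library held 70.39.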

How the data were processed

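RNA of whole seedlings was sequenced in 24 libraries, 3 for each of 8 groups. The authors deposited FPKM values for 33020 loci, written to 2 decimals. Per the submitters' processing notes, FastQC, cutadapt, STAR, HTSeq and DESeq2 were used with the TAIR10 genome. Versions, and how FPKM was derived, were not given in the sources used here. FPKM was transformed to log2(FPKM + 1), and 19126 genes averaging 1 FPKM or more were tested with limma 3.58.1 in R 4.3.3 (1 mean per group, 8 in all, with eBayes and its intensity trend). P-values were adjusted by Benjamini-Hochberg over all genes tested, with calls below 0.05. The difference from WT is the change in pif7 minus the change in WT, so its error holds that of all 4 groups.

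The named genes are PIF7, the 15 called genes with the largest rise and the 12 with the largest fall (no overlap between the libraries of the lights, and a higher mean of at least 2 FPKM), the 5 largest differences from WT each way, all core and PIF genes, up to 4 called members of each other list, and loci at 0 in 1 light. LHY, TOC1 and LUX were added after their values were seen. Members and lists were chosen with earlier results of these data known. A list is described by counts and medians only. Alternatives were rescaling, other pseudocounts (0.1 and 5), other filters, only the groups compared, no variance trend, a replicate block and each library left out. Depth is a weak estimate from the spacing of low FPKM values, and counts were not recovered. Promoter windows come from the TAIR10.1 genome and RefSeq gene starts; the table holds no coordinates. Tables were made in Python 3.11.15 with pandas 2.3.3, numpy 2.4.6 and matplotlib 3.10.9.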

Additional observations from a re-analysis of the deposited data

Results flagged for a closer look

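The following responses to shade differed between pif7 and WT in a test of the difference itself (limma, adjusted over all genes tested). Values are the log2(FPKM + 1) change in pif7 minus that in WT. Groups of 3 libraries were not tested for outlying samples. Several calls were lost in some of the 12 fits with 1 library left out. BBX18 lost its call in all 12, and PAP1, PIL1, PRR9, DIN10 and CRA1 in 11. Those of TPX2, KNOLLE and AT3G20340 were lost in 10, of HAT1 and U4.10 in 9, and of BBX19, AT1G07567 and PIF7 in 8. Fewer fits lost PIF4, TOC1 and AT5G44260 (5 each), CYP79F1 (3) and IPMI1 (1).

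Among shade regulators the difference was -0.54 for PIL1, -0.79 for PAR1, -0.58 for HAT1, -1.45 for ATHB4, -2.79 for HAT2 and -1.16 for HAT3. It was -1.73 for BEE1, -2.73 for PRE6, -2.34 for PRE1, -4.67 for FLP1 and -2.77 for CKX5. In the PIF family it was -0.89 for PIF4, -0.68 for PIF5, -1.82 for PIF6 and, at levels under 2 FPKM in the mutant, 0.76 for PIF7. The call for PIF7 (adjusted p = 0.0307) was lost in 8 of 12 fits with 1 library left out (adjusted p up to 0.0925). BBX18 and BBX19 differed by -0.71 and -0.81.

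In the auxin pathway the values were -3.85 for YUC8, -3.88 for YUC9, -1.03 for PIN3, -3.98 for IAA19, -5.04 for IAA29, -2.04 for IAA2, -4.33 for GH3.3 and -1.88 for GH3.5. SAUR1, SAUR19, SAUR22 and SAUR23 differed by -2.63, -1.92, -2.88 and -2.44. In other hormone pathways the values were -0.71 for BRI1, -2.41 for GA20OX1, -2.13 for GA20OX2, -2.55 for ACS8, -1.54 for ACS11 and -4.61 for ERF105.

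Clock genes differed by -1.01 (CCA1), -0.97 (LHY), -1.22 (PRR9), -1.05 (LNK1), -1.33 (LNK3) and 0.76 (TOC1). Antenna genes differed by -2.0 (LHCB1.1), -1.61 (LHCB2.1), -1.75 (LHCB2.2) and -1.75 (LHCB3). In secondary metabolism the values were -2.88 for LDOX, -2.75 for DFR, -2.20 for UGT75C1, -2.33 for GSTF12, -1.34 for PAP1, -1.69 for MYB29, -1.46 for CYP79F1, -1.34 for CYP83A1, -1.59 for IPMI1 and -1.1 for APR1. The defensin PDF1.3 differed by -4.58, TPX2 by -0.93, KNOLLE by -0.97 and AT5G44260 by -0.95.

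Larger responses in pif7 were those of DIN10 (1.04), CRA1 (2.43), U4.10 (3.79), AT1G07567 (2.51), AT3G20340 (2.26) and AT2G34317 (2.06).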

How the results depend on the processing

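Both the scaling and the libraries used moved the counts. After rescaling, 3291 genes were higher in shaded pif7, and 287 responded more than in WT. Rescaled and with white-light pif7 replicate 3 left out, an alternative chosen after seeing the data, 3380 were higher and 1189 responded less than in WT. With 1 library left out, 4254 to 6133 genes were higher and 1999 to 2366 lower. For the difference from WT, the counts ran from 152 to 1841 (more) and from 349 to 792 (less). The highest came without white-light pif7 replicate 3 and the lowest without shaded pif7 replicate 1, except that the fewest higher genes came without white-light replicate 1. The cause was not tested. Of the 140 named genes called for shade in pif7 and 72 called for the difference, none reversed under any alternative. Many were picked for a large change, which makes a reversal unlikely. Calls were lost more often. Without shaded pif7 replicate 2, 15 of the 140 were lost, the most for shade in pif7. Without shaded pif7 replicate 1, 23 of the 72 were lost, the most for the difference. Directions that turned belong to uncalled genes. After rescaling the change was -0.002 for PIF3, -0.072 for PIF1, -0.086 for PAR2 and -0.122 for HAT3. Rescaled without white-light replicate 3, it was -0.079 for PIF1, -0.214 for PAR2 and -0.196 for HAT3. With 1 library left out, PAR2 ran from -0.096 to 0.179 and HAT3 from -0.046 to 0.077.

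The replicate block, with the replicate number as a covariate, gave 5818 higher and 2679 lower genes in pif7 and 624 and 606 for the difference. Same-numbered pif7 libraries correlated at 0.084, 0.186 and 0.082 in their deviations, so the numbers were not taken as pairs, although every library correlated best with its own number. Using only the groups compared gave 4552 and 2411 genes. Depth is known only weakly, so no counting error could be given for genes of low FPKM.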
